A study of Mus musculus with 4 samples.

Results

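The stretch of mouse chromosome 6 that holds Gdf3, Dppa3 and Nanog was followed across 11 H3K27ac regions. They are the regions of the deposited tables that overlap chr6:122500000-122720000 on the mm9 build, out of 23946 regions in all. The window is 220 kb long, and distances below are counted in kb from a Nanog start taken at 122657500, with negative values on the Gdf3 and Dppa3 side. H3K27ac, the acetylation of lysine 27 of histone H3, was measured by chromatin immunoprecipitation and sequencing in MC1-ZE7 cells. This is a mouse embryonic stem (ES) cell line of strain MC1 (129S6/SvEvTac), grown without feeders in serum medium with leukemia inhibitory factor (LIF). Its fluorescent protein Emerald reports Zscan4, and cells were sorted by flow cytometry on Emerald. All 4 libraries come from this reporter line: 2 were made from cells without Emerald (Zscan4-) and 2 from the brightest Emerald fraction (Zscan4+). The labels name no separate cultures for the replicates, so p-values rest on the spread between these libraries, which may be technical. For single regions that spread was drawn largely from all listed regions, not from the region's own 4 values. Replicate 2 of each group was amplified before size selection and cut to a wider range of fragment sizes than replicate 1.

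Nanog encodes a homeodomain transcription factor that stabilises the self-renewing, pluripotent state of ES cells. Dppa3 (also called Stella or PGC7) encodes a maternal and germ cell factor that protects DNA methylation marks in the early embryo, and Gdf3 encodes a secreted ligand of the TGF-beta family. The 3 genes sit close together and are active in pluripotent cells, and enhancers upstream of Nanog, some close and some far, are known to drive its transcription. Zscan4 marks a short-lived state of ES cells that shares transcripts with the embryo at the 2-cell stage. H3K27ac is carried by nucleosomes of active promoters and enhancers. In the RefSeq order of the GRCm38.p6 build, the protein-coding genes follow one another as Apobec1, Gdf3, Dppa3, Nanog and Slc2a3. Apobec1 encodes a cytidine deaminase that edits messenger RNA, and Slc2a3 encodes a glucose transporter. The deposited regions carry no gene names and no mm9 gene models were used here, so regions are described by position, and none is assigned to the Gdf3 or Dppa3 promoter. For the same reason the sort could not be checked at Zscan4 itself.

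No listed region lay over the Nanog start. The nearest one, centred at -4.6 kb, ended 3.88 kb before it, and the next one began 8.04 kb after it. No levels outside the listed regions were available here, so the H3K27ac level at the start itself is not known. The 250 bases before the Nanog start are printed to show the promoter that lies in this gap. They come from RefSeq on GRCm38.p6, plus strand, chr6:122707239-122707488, and these positions are not on the scale of the mm9 regions. The capitals mark an octamer-type stretch followed by a Sox-type stretch, the kind of composite element that OCT4 and SOX2 are known to bind in this promoter.

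Nanog: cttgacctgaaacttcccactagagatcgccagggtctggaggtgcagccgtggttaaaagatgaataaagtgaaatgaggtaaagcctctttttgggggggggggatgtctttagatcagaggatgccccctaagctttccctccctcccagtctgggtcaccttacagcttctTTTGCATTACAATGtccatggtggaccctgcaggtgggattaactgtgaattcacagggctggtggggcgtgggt

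The marked element runs from 75 to 62 bases before the start. Its pattern, TTTGCAT and ACAATG spaced by 1 base on either strand, was added after this sequence had been read. It occurred in 2 of 32851 promoter entries, and both were entries of Nanog with different starts. A pattern this long, taken from the sequence itself, would be rare among other promoters in any case. The other motifs searched on both strands were TGCAAAT (7 bases of the octamer), ACAAAG (the Sox core), CACACCC (Klf type), AAGGTCA (Esrrb type) and TGCACAC (Zscan4 type). Each had 0 matches in these 250 bases. The shares of all entries that hold them were 3.56%, 16.5%, 6.93%, 4.08% and 3.67% in that order. The table holds 2 promoter entries for Nanog and 0 each for Dppa3 and Gdf3.

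The libraries held between 9939171 and 18284286 reads, as worked out from the deposited RPKM (reads scaled to region length in kilobases and to library size). Between 12.97% (Zscan4+ replicate 1) and 19.14% (Zscan4+ replicate 2) of them fell in the 23946 listed regions, and the Zscan4- libraries lay between. The median standard error of a region's log2 difference was 0.36 per library total and 0.21 after each library was centred on its median region. Levels are therefore also given relative to the reads in listed regions or to the median region of each library. Counting intervals come from reads pooled within each group, so they cover counting error only and leave out the spread between libraries. They may be too narrow even for that, since copies made by PCR are not independent molecules.

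The 11 regions formed a dense group, but the adjoining 220 kb below the window held 10, and that above it 5. Cut into tiles of 220 kb, the chromosomes gave 11999 tiles with a median of 1 listed region, and 313 tiles (2.61%) held at least 11. The tiles lay on a fixed grid, whereas the window was set around the locus, so this share is only a rough guide. Of the 11 regions, 8 lay on the Gdf3 and Dppa3 side of the Nanog start and 3 beyond it. Gaps between neighbours ran from 635 bp, between the regions at -99.1 and -98.1 kb, to 37.3 kb, between those at -82.5 and -44.2 kb. Widths ran from 343 to 1741 bp, against a median of 1111 bp over all listed regions.

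The highest levels in RPKM were found in 3 regions, and in each of them both Zscan4- libraries lay above both Zscan4+ libraries. The -99.1 kb region (R18658, chr6:122558217-122558560) stood at 57.2 RPKM (replicate 1) and 47.93 RPKM (replicate 2) in the negative cells, and at 29.82 and 33.7 RPKM in the positive cells. Its neighbour at -98.1 kb (R18659, chr6:122559195-122559654) had 40.11 and 42.56 RPKM against 19.9 and 33.53 RPKM. Both are narrow, at 343 and 459 bp, and form a close pair on the side of the window away from Nanog. RPKM divides reads by width, so this ranking depends on where region borders were drawn. The -99.1 kb region held 195 and 292 reads in the Zscan4- and 187 and 184 in the Zscan4+ libraries. The +35.8 kb region, 937 bp wide, held 139 and 292 in the Zscan4- and 204 and 245 in the Zscan4+ libraries. The -4.6 kb region (R18664, chr6:122652100-122653620), just upstream of the Nanog promoter printed above, stood at 38.46 and 37.67 RPKM in the Zscan4- libraries and at 20.11 and 31.12 RPKM in the Zscan4+ libraries. It is 1520 bp wide and held the most reads of the locus, between 33.3% and 35.7% of all reads in the 11 regions in each of the 4 libraries.

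Values of these 3 regions stood in the top 5% of the table in all libraries, with percentiles between 95.3 and 99.7. As group means, the -99.1 kb region had 52.56 ± 6.55 RPKM in the negative and 31.76 ± 2.74 RPKM in the positive cells (SD, n = 2). The -98.1 kb region had 41.34 ± 1.73 and 26.72 ± 9.64 RPKM (SD, n = 2). The -4.6 kb region had 38.06 ± 0.56 and 25.62 ± 7.79 RPKM (SD, n = 2). The Zscan4+ means thus stood at 60.4%, 64.6% and 67.3% of the Zscan4- means. None of these differences passed the test scaled to library totals. The log2 differences were -0.72, -0.67 and -0.60, with adjusted p of 0.29, 0.32 and 0.39 by limma, fitted over all 23946 regions with Benjamini-Hochberg adjustment. Their 95% intervals, from -1.56 to 0.13, from -1.49 to 0.16 and from -1.41 to 0.22, reach from a fall of more than 2-fold to a small rise.

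**Figure D1:**
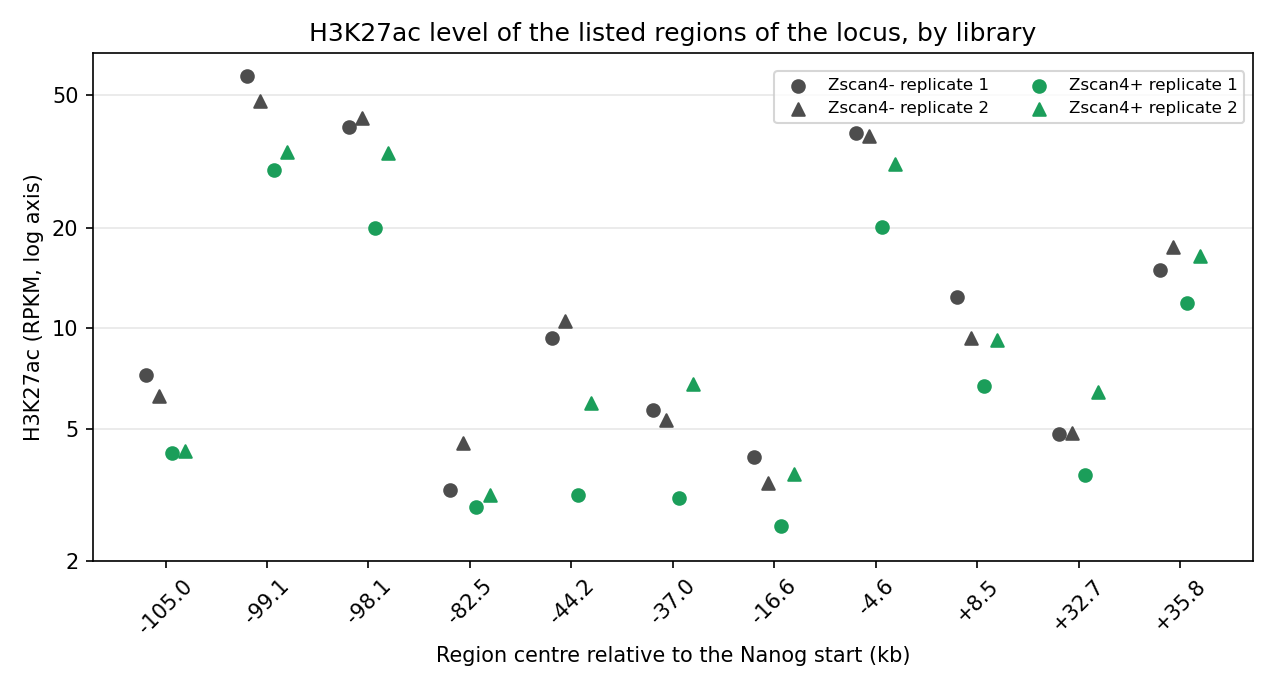
H3K27ac level (RPKM, log axis) of the 11 listed regions, ordered by the distance of their centre from the Nanog start in kb. Grey points are Zscan4- and green points Zscan4+ libraries, circles replicate 1 and triangles replicate 2. The regions at -99.1, -98.1 and -4.6 kb stand highest. Both green points lie below both grey points there, at -44.2 kb and elsewhere, in 7 of the 11 regions (35.1% of all listed regions).

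The region at -44.2 kb (R18661, chr6:122612760-122613812) fell in Zscan4+ cells. It lies upstream of Nanog, toward Dppa3, in the part of the locus where a distal Nanog enhancer is known. Its level was 9.37 and 10.54 RPKM in Zscan4- replicates 1 and 2, and 3.17 and 5.97 RPKM in Zscan4+ replicates 1 and 2. The Zscan4+ values were thus both lower, with replicate 1 the lowest. The mean went from 9.95 ± 0.83 to 4.57 ± 1.98 RPKM (SD, n = 2), or 45.9% of the Zscan4- level. The limma log2 difference was -1.10 with a standard error of 0.36, a 95% interval of -1.81 to -0.38 and an adjusted p of 0.022. It was -1.43 in replicate 1 and -0.77 in replicate 2. With each library centred on its median region, these were -1.13 and -0.87. Of all listed regions, 4.15% had a limma log2 difference, per library total, at or below that of this region.

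The depth behind the fall was 98 and 197 reads in the Zscan4- and 61 and 100 reads in the Zscan4+ libraries, in the order of the replicates. Relative to library totals, the pooled reads gave a ratio of Zscan4+ to Zscan4- of 0.44, with an exact 95% counting interval of 0.36 to 0.54. In rank the region went from the 79.2 and 80.0 percentiles of the Zscan4- libraries to 34.9 and 56.1 in the Zscan4+ libraries. The share of the locus's own reads that it held, which does not depend on the scaling of the libraries, was 6.0% and 6.9% in Zscan4- and 3.6% and 4.6% in Zscan4+ cells. The call depended on which library was left out: the log2 difference was -1.18 (adjusted p = 0.65) without Zscan4- replicate 1, -1.02 (0.81) without Zscan4- replicate 2 and -0.69 (0.053) without Zscan4+ replicate 1, all by limma. Without Zscan4+ replicate 2 it was -1.51, with an adjusted p of 0.00087.

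Across the locus, 1 of 11 regions was called lower at an adjusted p of at most 0.05, against 6.82% of all listed regions. Called higher were 0 of 11, against 8.01%. The number higher at an unadjusted p under 0.05 was also 0, and voom on the recovered reads called 0 higher and 1 lower. A count of 1 in 11 is near the background share and says nothing particular about the locus. By sign, 10 of 11 log2 differences were below 0, as were 61.7% of all listed regions, and the median was -0.43 in the locus against -0.17 over all regions. The replicates differed in this: in replicate 1, 11 of 11 differences were below 0 (72.8% of all regions), and in replicate 2, 8 of 11 (46.2%). The median difference in the locus was -0.78 in replicate 1 and -0.27 in replicate 2, against -0.37 and 0.05 over all regions.

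In 7 of the 11 regions both Zscan4- libraries lay above both Zscan4+ libraries, as in 35.1% of all listed regions. The reverse held for 0 of 11, against 18.6%. After centring each library on its median region the counts in the locus were again 7 and 0, against 37.6% and 29.0% of all regions. The region at -82.5 kb left the count and that at +35.8 kb joined it. Centring shifts the median difference of all regions from -0.17 to -0.07. With centring, limma gave the -44.2 kb region a log2 difference of -1.0 (adjusted p = 0.0027) and no other region of the locus passed, the nearest being -98.1 kb at -0.57 (adjusted p = 0.055). With the replicate number as a block and centring together, 5 of 11 were called lower, against 24.5% of all listed regions. Those were the regions at -44.2 kb (-1.0, adjusted p = 0.00034), -99.1 kb (-0.62, 0.013), -98.1 kb (-0.57, 0.014), -105.0 kb (-0.51, 0.015) and -4.6 kb (-0.50, 0.022). The block alone left the count at 1. Without Zscan4+ replicate 2, limma called 6 of 11 lower, against 31.5% of all listed regions, and without each of the other libraries 0 of 11.

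**Figure D2:**
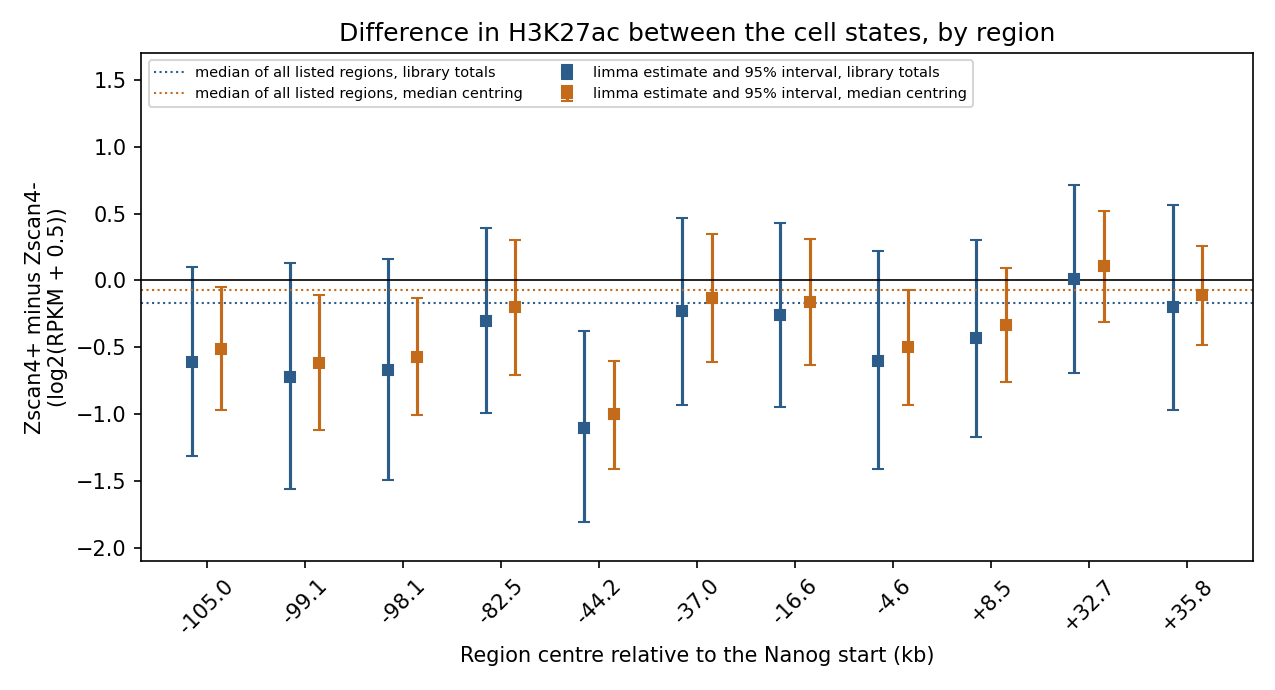
Log2 difference in H3K27ac, Zscan4+ minus Zscan4-, for the 11 regions by distance from the Nanog start in kb, from limma scaled to library totals (blue) or with median centring (orange). Squares are estimates, bars 95% intervals and dotted lines the median over all listed regions (-0.17 and -0.07); at -44.2 kb both intervals lie below 0.

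The outer regions on the Gdf3 and Dppa3 side had lower levels than the 3 highest members. The -105.0 kb region (R18657, chr6:122551639-122553380), the widest at 1741 bp, had 7.22 and 6.27 RPKM in Zscan4- cells, whereas Zscan4+ cells had 4.21 and 4.29 RPKM. Its groups did not overlap, and its log2 difference was -0.61 (limma adjusted p = 0.28). The -82.5 kb region (R18660, chr6:122574649-122575421) had 3.26 and 4.52 RPKM against 2.9 and 3.17 RPKM, with the Zscan4- libraries just above. It stood below the median region in every library, at percentiles of 14.0 to 40.6. That order did not hold after centring, and the log2 difference was -0.30 (limma adjusted p = 0.66).

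Between the -44.2 kb region and the Nanog start the groups overlapped at the remaining regions other than -4.6 kb. The -37.0 kb region (R18662, chr6:122619957-122621017) lies 6.1 kb from the one that fell. It had 5.7 and 5.31 RPKM in Zscan4- cells, and 3.1 and 6.81 RPKM in Zscan4+ cells. Zscan4+ replicate 1 was thus the lowest and replicate 2 the highest of the 4. The log2 difference was -0.23 (limma adjusted p = 0.76), and it was 0.28 without Zscan4+ replicate 1. The -16.6 kb region (R18663, chr6:122640378-122641429) had 4.12 and 3.43 RPKM against 2.55 and 3.65 RPKM, a log2 difference of -0.26 (limma adjusted p = 0.71).

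Beyond the Nanog start, toward Slc2a3, 3 regions were listed, and none passed the test. The +8.5 kb region (R18665, chr6:122665536-122666435) had 12.42 and 9.33 RPKM in Zscan4- cells, whereas Zscan4+ cells had 6.69 and 9.22 RPKM. Its groups were all but touching, between 9.33 and 9.22 RPKM, and the log2 difference was -0.43 (limma adjusted p = 0.51). The +32.7 kb region (R18666, chr6:122689429-122691021) had 4.8 and 4.85 RPKM against 3.64 and 6.43 RPKM. Its Zscan4+ mean was 104.6% of the Zscan4- mean, the highest such share in the locus. Its log2 difference was 0.01, with a 95% interval of -0.69 to 0.71, and the estimate with voom was -0.0023. The +35.8 kb region (R18667, chr6:122692848-122693785) had 14.93 and 17.55 RPKM against 11.91 and 16.42 RPKM. It kept its rank, with percentiles between 86.4 and 88.1 in the 4 libraries, and its log2 difference was -0.20 (limma adjusted p = 0.81).

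**Figure D3:**
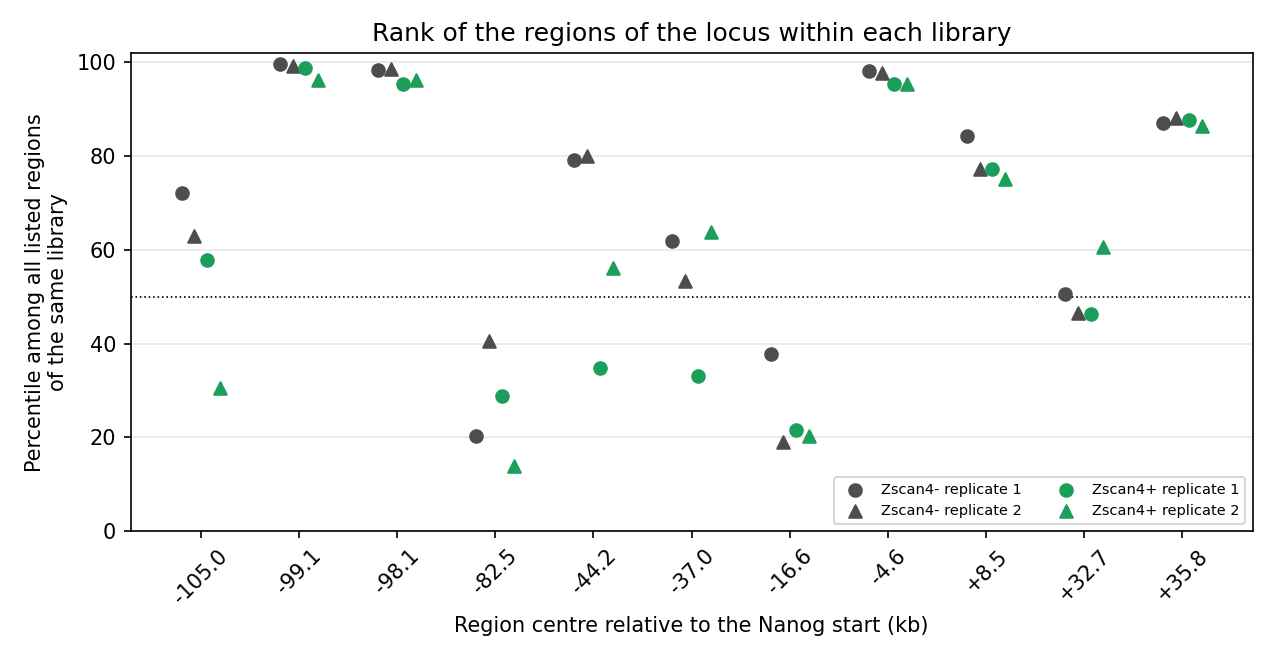
Percentile of each of the 11 regions among all 23946 listed regions of the same library, by distance from the Nanog start in kb; grey is Zscan4-, green Zscan4+, circles replicate 1 and triangles replicate 2, and the dotted line is the median. The +35.8 kb region keeps its rank between 86.4 and 88.1, whereas the -44.2 kb region goes from 79.2 and 80.0 in Zscan4- to 34.9 and 56.1 in Zscan4+ libraries.

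Summed over its 11 regions, which cover 11.43 kb, the locus held less H3K27ac in both Zscan4+ libraries. Zscan4- replicates 1 and 2 had 164.6 and 160.5 reads per 1000000 library reads, and Zscan4+ replicates 1 and 2 had 91.8 and 135.4. The means were 162.6 ± 2.9 and 113.6 ± 30.9 (SD, n = 2), a log2 difference of -0.54. The exact two-sided permutation p was 0.333, the smallest that 2 libraries against 2 can give. Without Zscan4+ replicate 1 the difference was -0.26, and without Zscan4+ replicate 2 it was -0.82. As reads per 1000000 of those in listed regions, the Zscan4+ libraries came together at 707.5 and 707.7, below 983.5 and 897.8 in the Zscan4- libraries, a log2 difference of -0.41 with the same exact permutation p of 0.333. In a sorted bulk population, fewer cells with the mark and less mark per cell cannot be told apart.

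The flanking windows of 220 kb on either side gave the local comparison. They held 15 regions, 10 below and 5 above the window. By limma 0 of the 15 were called higher, against 8.01% of all listed regions, and 0 lower, against 6.82% (lowest adjusted p 0.15). For so few regions a count of 0 is near these shares. Of the 15, 1 had an unadjusted p under 0.05, R18652 at -238.0 kb, with a log2 difference of 0.74. With median centring, limma called 2 of the 15 higher (14.1% of all listed regions) and 1 lower (15.1%). Higher were R18652 (0.84, adjusted p = 0.017) and R18654 at -220.4 kb (0.68, 0.04), and lower was R18650 at -341.3 kb (-0.70, 0.028). With the block and centring together 4 were called higher (20.7% of all) and 2 lower (24.5%). Counts this small, so near the background shares, say nothing particular about the flanks. Before centring, both Zscan4- libraries lay above both Zscan4+ libraries in 6 of the 15 flank regions, against 35.1% of all listed regions. The reverse held in 2 of the 15, against 18.6%. Both counts are near these shares. The regions nearest to the window were at -215.8 and -174.1 kb and at 72.7 and 78.4 kb, with log2 differences of -0.34, -0.18, -0.34 and -0.20. Summed, the flanks had 117.6 and 124.3 reads per 1000000 library reads in Zscan4- and 92.8 and 131.7 in Zscan4+ cells, so the groups overlapped. As reads per 1000000 of those in listed regions they had 702.7 and 695.3 against 715.5 and 688.3.

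The ratio of locus to flank reads, in which the scaling of the library cancels, was 1.40 and 1.29 in Zscan4- replicates 1 and 2. It was 0.99 and 1.03 in Zscan4+ replicates 1 and 2. The locus thus held more reads than its flanks in both Zscan4- libraries and about as many in both Zscan4+ libraries. The means were 1.35 ± 0.08 and 1.01 ± 0.03 (SD, n = 2), a log2 difference of -0.41 that stayed between -0.47 and -0.36 when a library was left out. The exact two-sided permutation p was again 0.333, the smallest possible, so this comparison could not reach 0.05. It was chosen after the sums had been seen.

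**Figure D4:**
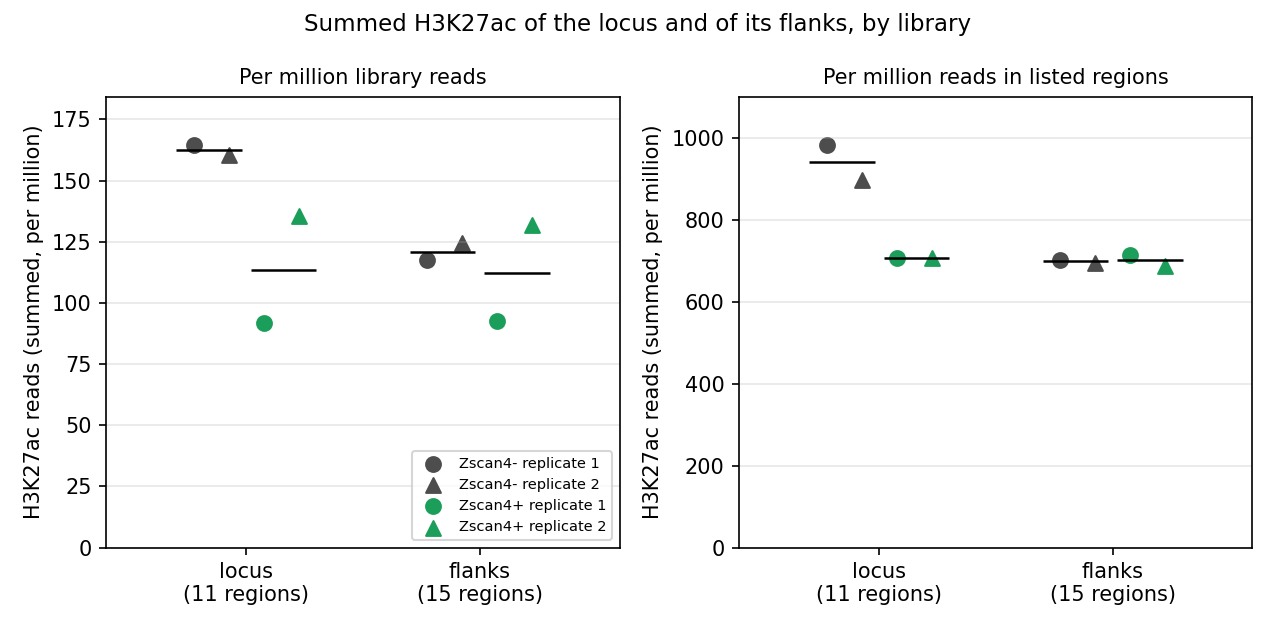
Summed H3K27ac reads of the 11 regions of the locus and of the 15 regions of its flanks, in reads per 1000000 library reads (left) and as reads per 1000000 of those in listed regions (right); points are libraries, with grey Zscan4-, green Zscan4+, circles replicate 1, triangles replicate 2, and lines are group means. On the right the Zscan4+ libraries stand at 707.5 and 707.7 in the locus, below 983.5 and 897.8 in the Zscan4- libraries, while the flanks of all 4 lie between 688.3 and 715.5.

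The regions whose pattern over the 4 libraries was most like the highest member, the -99.1 kb region, were all narrower than it. Likeness was the Euclidean distance in log2(RPKM + 0.5) over the 4 libraries. The nearest was R17229 (chr5:118899532-118899760) at a distance of 0.15, with 58.69 and 45.93 RPKM in Zscan4- cells, whereas Zscan4+ cells had 30.46 and 36.92 RPKM. R11833 (chr2:20576878-20577106) followed at 0.17 and R05571 (chr13:23654742-23655032) at 0.21. They were 228, 228 and 290 bp wide, and their log2 differences were -0.62, -0.63 and -0.57, none of which passed limma's test (adjusted p of 0.38, 0.37 and 0.43). The choice by likeness used these same values, so the similar differences are no separate result.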

How the data were processed

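The authors deposited RPKM values, 1 table per library, per the file headers, rounded to 2 decimals. Bowtie, HOMER and mm9 are named in the submitters' processing notes; their versions, and the way regions were chosen, were not given in the sources used here. The same regions are listed in each table. RPKM times width fell on whole multiples of 1 step per library, taken as 1 read: of values under 50 reads, 97.13% to 99.97% were whole within 0.1 reads, depending on the library. Neither an input library nor an mm9 genome was used here.

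Groups were compared with limma 3.58.1 (R 4.3.3) on log2(RPKM + 0.5), with a variance trend, over all 23946 regions (a minimum mean of 0.5 RPKM removed 0). Tests were two-sided, with Benjamini-Hochberg adjustment over all regions and calls at 0.05. The spread used by limma came largely from all regions. Both the -105.0 kb and the -37.0 kb region had a standard error of 0.36. Yet replicate 2 minus replicate 1 (log2, Zscan4- then Zscan4+) was -0.19 and 0.02 at -105.0 kb, and -0.09 and 1.02 at -37.0 kb. An adjusted p thus says little about how well a single region's libraries agreed. Log2 differences are on the log2(RPKM + 0.5) scale, which understates changes of low regions. On simulated reads for the 23946 regions, the fit called 43 of 50 regions raised 4-fold and 33 of 50 lowered 4-fold, but 0 of 50 raised and 4 of 50 lowered 2-fold, and 3 of 23746 left the same. The simulation gave every region the same spread beyond counting error, and no effect of the preparation on single regions. These rates may therefore not hold for the real libraries. Sums were compared by exact permutation of libraries (Python 3.11.15, scipy 1.17.1). Replicate numbers pair the libraries through the preparation stated in the labels' protocols, and replicate differences correlated at 0.35 between the groups across regions. Every region in the window is described; outside it, the 2 regions nearest each end of the window and the 3 most like the highest member. The members, lists and alternatives were chosen with earlier results of these data known.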

Additional observations from a re-analysis of the deposited data

How the results depend on the processing

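The count of lower regions in the locus (1) stayed at 1 with the replicate block, pseudocounts of 0.1 and 1, no minimum, a minimum of 2 RPKM, median centring, quantile normalization, no variance trend, voom on recovered reads and a threshold of 0.10. It was 5 with the replicate block and median centring together, where the median standard error over all regions was 0.16 in place of 0.36, and 0 to 6 when a library was left out (0 without Zscan4- replicate 1, Zscan4- replicate 2 or Zscan4+ replicate 1, and 6 without Zscan4+ replicate 2, where 31.5% of all listed regions were called lower, against 0.246% to 5.12% without each of the others). The count of higher regions was 0 throughout these settings. Where a group was left with 1 library, its spread was taken from the other group. No minimum repeats the main fit, as the minimum removed 0 regions, so agreement there was fixed in advance. With the block alone the estimates, and so their direction, could not change. Of 154 single-region values under 14 other settings, with these included, 138 kept direction and side of the threshold. Those that reversed were at -37.0 kb (range -0.74 to 0.28 when a library was left out) and +35.8 kb (-0.43 to 0.02), both without Zscan4+ replicate 1, and at +32.7 kb (-0.36 to 0.38) without Zscan4+ replicate 2 and with voom (-0.0023, against 0.01); the cause was not tested. The summed difference of the locus (-0.54) ran from -0.82 to -0.26 when a library was left out, and was -0.52 without the -99.1 kb region. That of the flanks (-0.13) was 0.01 scaled to reads in listed regions, and -0.38 to 0.12 when a library was left out. The non-overlap count and the ratio of locus to flank reads (-0.41) were added after seeing the data. Averaging the sums and the ratio within the replicate pairs gives the same differences by arithmetic, so it is no check. Depth limits the shallowest member, at -82.5 kb, which had 25 to 62 reads per library.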
